A study of Mus musculus with 11 samples.

Results

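The genes described here are 9 genes of the complement system, and they were picked by symbol from the 36529 genes that the count files list. They are Hc (component C5), C3, Cfb (factor B), Cfp (properdin), the 3 C1q chains C1qa, C1qb and C1qc, and the receptors C3ar1 and C5ar1. The members were chosen with results of these data known, and Hc was singled out because its rise differed most between the fragments. Their levels and fold changes are therefore given as a description without p-values. All 9 genes were listed in all 11 samples.

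The samples are cultures of BV2, a mouse microglia line made by transformation, with C57BL/6 given as the strain. In one experiment, 3 samples received 25 µg/ml of the 6xHis tagged amino-terminal fragment nApoE4 (residues 1 to 151) for 5 h, and 3 untreated samples (ControlA) served as their controls. In a separate experiment, 2 samples received nApoE3, the same stretch of the apoE3 protein, at this dose and time, and 3 untreated samples (ControlB) served as their controls. The fragments differ by the amino acid change that separates apoE3 from apoE4. The labels name a PBS vehicle and the methods of the study name conditioned media, so what the controls received is not settled here. Each fragment was applied in its own experiment, so an effect of the fragment and an effect of the experiment cannot be told apart. The labels do not say whether replicates came from separate cultures, and the error between them may be technical. The paper mentions averages of 3 independent measurements and, for a figure, 3 independent trials, while the nApoE3 group here holds 2 samples. It does not say whether these were separate cultures.

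Complement is a cascade of blood and tissue proteins that marks targets for removal. C1q, built from the A, B and C chains, starts the classical pathway, while factor B and properdin run the alternative pathway. Both pathways cleave C3 and then C5, and the small fragments C3a and C5a act through the receptors C3ar1 and C5ar1. In the brain, microglia are the main source of C1q and they carry both receptors, and C1q and C3 are known for tagging synapses for removal. Most circulating C3 and C5 is made by the liver.

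The genes lie at separate places of the mouse genome, apart from the C1q chains, which sit side by side. In the GENCODE annotation of GRCm38, Hc lies at chr2:34983331-35061438, C3 at chr17:57203970-57228136, Cfb at chr17:34856374-34862518 and Cfp at chrX:20925454-20931555. C1qb lies at chr4:136880129-136886187, C1qc at chr4:136889804-136893065 and C1qa at chr4:136895917-136898803. C3ar1 lies at chr6:122847138-122856161 and C5ar1 at chr7:16246743-16259540. All 9 are on the minus strand.

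Start site sequences from RefSeq (GRCm38.p6) were found for 7 of the 9 genes, all but Cfb and C1qa. The 250 bases before the start of 4 genes are shown because these genes behaved differently. Hc and C3 were both higher with both fragments, with unlike and like fold changes between them, C1qb stands for the C1q chains that were lower with both, and C3ar1 was the member whose direction differed. They are written 5′ to 3′ on the strand of the gene, with motif matches in capitals, C/EBP in C3 and PU.1 in C1qb.
Hc, chr2:35061413-35061662, minus strand: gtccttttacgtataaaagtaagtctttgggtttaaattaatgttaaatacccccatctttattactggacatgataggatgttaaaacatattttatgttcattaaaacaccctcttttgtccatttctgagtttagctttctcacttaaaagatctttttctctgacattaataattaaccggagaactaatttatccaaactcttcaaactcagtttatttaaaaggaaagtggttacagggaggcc
C3, chr17:57228137-57228386, minus strand: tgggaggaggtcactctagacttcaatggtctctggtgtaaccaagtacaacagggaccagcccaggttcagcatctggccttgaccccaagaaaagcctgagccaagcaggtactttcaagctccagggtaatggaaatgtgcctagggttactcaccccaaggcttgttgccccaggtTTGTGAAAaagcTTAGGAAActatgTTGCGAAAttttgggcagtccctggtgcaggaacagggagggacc
C1qb, chr4:136886201-136886450, minus strand: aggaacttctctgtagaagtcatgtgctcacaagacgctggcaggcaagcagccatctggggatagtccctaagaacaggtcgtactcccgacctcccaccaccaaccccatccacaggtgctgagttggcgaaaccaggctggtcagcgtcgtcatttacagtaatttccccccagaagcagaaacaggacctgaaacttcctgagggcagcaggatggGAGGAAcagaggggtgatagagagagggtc
C3ar1, chr6:122856158-122856407, minus strand: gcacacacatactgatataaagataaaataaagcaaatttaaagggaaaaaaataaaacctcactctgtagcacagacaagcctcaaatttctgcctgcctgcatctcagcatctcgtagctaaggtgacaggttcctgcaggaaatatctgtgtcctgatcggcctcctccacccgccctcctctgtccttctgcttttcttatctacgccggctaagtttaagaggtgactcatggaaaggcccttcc

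The letters of 4 motifs were searched on both strands, and matches to different motifs may overlap. They were the NF-kB consensus by its name, GAS as TTCNNNGAA, PU.1 as GAGGAA and C/EBP as TTNCNNAA. The C3 sequence held 3 C/EBP matches, at 70 to 63, 58 to 51 and 45 to 38 bases before the start. The C1qb sequence held 1 PU.1 match, 30 to 25 bases before the start. The sequences of Hc, C3ar1 and Cfp held none of these letters. C5ar1 held 1 C/EBP match, and C1qc held 1 match each for the NF-kB consensus, PU.1 and C/EBP. The starts are RefSeq starts, and the sequences of Hc, C1qc, C3ar1 and C5ar1 reach into the GENCODE spans of these genes. The C5ar1 match and the NF-kB and C/EBP matches of C1qc lie inside these spans. The RefSeq span of Hc runs on to chr2:35068506, beyond its sequence. These 250 bases thus need not lie before the first base of a gene. Of 32841 such sequences over all genes, 3.9% held the NF-kB consensus, 7.02% GAS, 23.3% PU.1 and 36.9% C/EBP. A match is a description of these letters and does not show that a factor binds.

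The depth was 39732710 to 44162511 counts on genes per sample in the nApoE4 experiment and 55809688 to 69768666 in the nApoE3 experiment. Levels are given as CPM, counts per 1e6 of the library size multiplied by its TMM factor. The TMM factor, a normalization factor for each sample, was fitted over all 11 samples. At this depth, 3 counts were 0.0643 to 0.0756 CPM in the nApoE4 experiment and 0.0425 to 0.0532 CPM in the other, which covers counting error only. Of 11 microglia markers, 8 had at least 10 counts in every sample, among them Csf1r and Tyrobp, while P2ry12, a marker of resting microglia, was at 0 in all 11. Cx3cr1 had 3 to 43 counts, and Aif1, which lies in the stretch of low counts around Cfb described below, had 0 to 10. Among the 8, Trem2 averaged 21.45 CPM in ControlA, 2.975 with nApoE4, 0.722 in ControlB and 0.521 with nApoE3. Tmem119 averaged 2.81, 1.42, 8.55 and 1.63 CPM in the same order. The 4 hepatocyte markers and the 4 fibroblast markers summed to at most 0.301 CPM in any sample. The 4 oligodendrocyte markers, mostly Mbp, summed to 11.37 to 14.25 CPM in ControlA and 9.33 to 11.81 CPM with nApoE4. In the other experiment they summed to 24.06 to 24.61 CPM in ControlB and 22.15 to 25.45 CPM with nApoE3. The 4 astrocyte markers summed to 0.78 to 1.19 CPM in the controls and to 4.43 to 6.78 CPM in the treated samples, nearly all of it Slc1a2, while Gfap, Aqp4 and Gjb6 had at most 4 counts in any sample. The 4 neuron markers, mostly Tubb3, summed to 1.93 to 2.49 CPM in ControlA, 5.27 to 6.27 CPM with nApoE4, 1.08 to 1.41 CPM in ControlB and 1.40 to 1.46 CPM with nApoE3. The part of these markers in the results was not tested.

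Hc encodes component C5, whose cleavage gives C5a and starts the membrane attack complex. It was close to absent from untreated cells, rose to 457 counts or more with nApoE4, and reached about 20 counts with nApoE3. Hc had 1, 0 and 3 counts in ControlA and 457, 725 and 516 counts with nApoE4. It had 6, 6 and 1 counts in ControlB and 20 and 22 counts with nApoE3. In each experiment, every treated sample was above every control, and the lowest nApoE4 sample was far above the higher of the nApoE3 samples.

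The mean level of Hc was 0.0293 ± 0.0325 CPM (SD, n = 3) in ControlA and 13.7 ± 3.45 CPM (SD, n = 3) with nApoE4. It was 0.0665 ± 0.0427 CPM (SD, n = 3) in ControlB and 0.367 ± 0.0325 CPM (SD, n = 2) with nApoE3. As ratios of summed counts scaled to library size times TMM factor, Hc was higher by 459-fold with nApoE4 (95% exact counting interval 179 to 1685). With nApoE3, it was higher by 5.32-fold (2.80 to 10.8). These intervals cover counting error alone, and the ControlA sum behind the first of them was 4 counts. In samples of whole cultures, a change in the number of cells that make a transcript and a change in the transcript per cell cannot be told apart.

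The 2 control groups did not differ clearly for Hc, with a ratio of ControlB to ControlA of 2.31 (0.713 to 9.72) and overlapping samples. The log2 fold change fitted by edgeR was 8.72 (SE 0.39) with nApoE4 and 2.38 (SE 0.48) with nApoE3, and the difference between the fragments was 6.36 (SE 0.98). With so few control counts, the fitted values depend on the prior count of the fit. This difference is the value by which Hc was chosen, and it was higher than in 99.97% of the 15287 genes tested. Without ControlA replicate 3, which held 3 of the 4 control counts, the fold change with nApoE4 was 9.90 and the difference was 7.57, both on the log2 scale. Without ControlA replicate 2, which had no counts, they were 8.16 and 5.81. Hc entered the tests of both experiments only through its treated samples.

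C3 encodes the component on which all pathways converge, and its proportional rise was similar with both fragments from very different baselines. In the nApoE4 experiment, C3 was at 7.28, 6.82 and 6.79 CPM in ControlA and at 46.8, 51.3 and 50.3 CPM in treated cells. In the nApoE3 experiment, it was at 66.4, 66.1 and 64.9 CPM in ControlB and at 456 and 412 CPM in treated cells. Untreated cells of the second experiment thus held more C3 than treated cells of the first, and no treated sample overlapped its own controls.

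The log2 fold change of C3 was 2.83 (SE 0.070) with nApoE4 and 2.72 (SE 0.037) with nApoE3. The difference between the fragments was 0.11 (SE 0.083), close to its error. Between the control groups, C3 was higher in ControlB by 3.22 (SE 0.052) on the log2 scale, a larger distance than either fragment's change. Per kilobase of exon, C3 stood 4.55 ± 0.893 (SD, n = 3) times above Hc with nApoE4 and 1453 ± 232 (SD, n = 2) times above it with nApoE3.

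**Figure D1:**
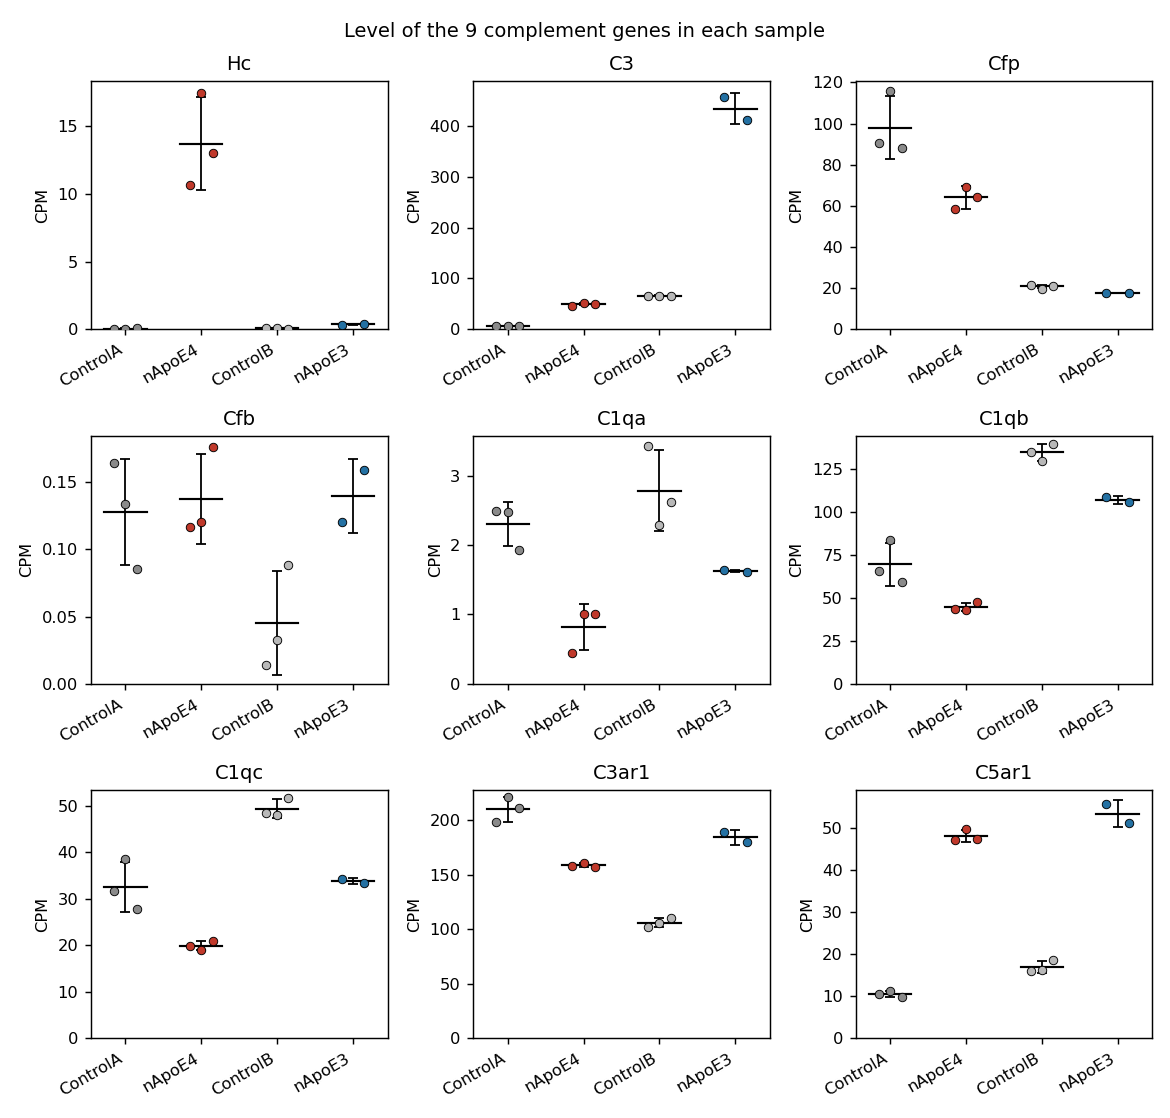
Level of each of the 9 genes in CPM (vertical axis, linear from 0, own scale per gene) in every sample of ControlA, nApoE4, ControlB and nApoE3. Points are samples, the horizontal line is the group mean and the bar is the SD over 3 samples, or 2 for nApoE3. Cfb rests on 1 to 9 counts per sample. Hc is high with nApoE4 alone, C3 and C5ar1 are higher with both fragments, the C1q chains and Cfp are lower with both, and C3ar1 moves in opposite directions.

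Cfp encodes properdin, which stabilizes the C3 convertase of the alternative pathway. It was at 90.5, 116 and 88.0 CPM in ControlA and at 58.5, 69.4 and 64.4 CPM with nApoE4. It was at 21.4, 19.8 and 21.3 CPM in ControlB and at 17.8 and 17.6 CPM with nApoE3. Treated samples lay below their own controls in both experiments, by −0.61 (SE 0.11) and −0.24 (SE 0.047) on the log2 scale. The distance between the control groups was larger, with ControlB lower than ControlA by −2.25 (SE 0.11). The difference between the fragments was −0.38 (SE 0.14).

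Cfb encodes factor B, the protease part of that same convertase, and its counts could not be read as its expression. Cfb had 7, 6 and 4 counts in ControlA, 5, 5 and 7 with nApoE4, 1, 2 and 5 in ControlB and 7 and 9 with nApoE3. Its ratio was 1.08 (95% exact counting interval 0.518 to 2.25) with nApoE4 and 3.30 (1.33 to 8.89) with nApoE3. It had too few counts to be tested in any comparison.

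Low counts extended over the whole surroundings of Cfb. A stretch was defined around Cfb that ended at the nearest protein-coding gene on each side with at least 1000 counts in some sample. Its genes are thus under 1000 counts by definition. It ran between Hnrnpm and H2-Q4 on chromosome 17, over 1.69 Mb with 100 protein-coding genes, and the highest count among these genes was 828. The median of their highest counts was 9.5. Rps18, a ribosomal protein gene in this stretch, had 47 to 97 counts. The median of the mean counts of 76 ribosomal protein genes more than 1 Mb from Cfb was 33360. The 76 include Rps28, which also lies in the stretch and had at most 64 counts. Within 1 Mb of Cfb, 89 of 113 protein-coding genes (78.8%) had under 100 counts in every sample, against 49.1% of all protein-coding genes and 27.3 to 54.8% around the other members. The stretch also holds C2, at 0 counts in all samples, C4a at 0 to 4 counts and C4b at 3 to 38 counts. The cause of these low counts was not tested, and neither the counts of these genes nor the ratios and CPM computed from them for Cfb are read as expression.

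**Figure D2:**
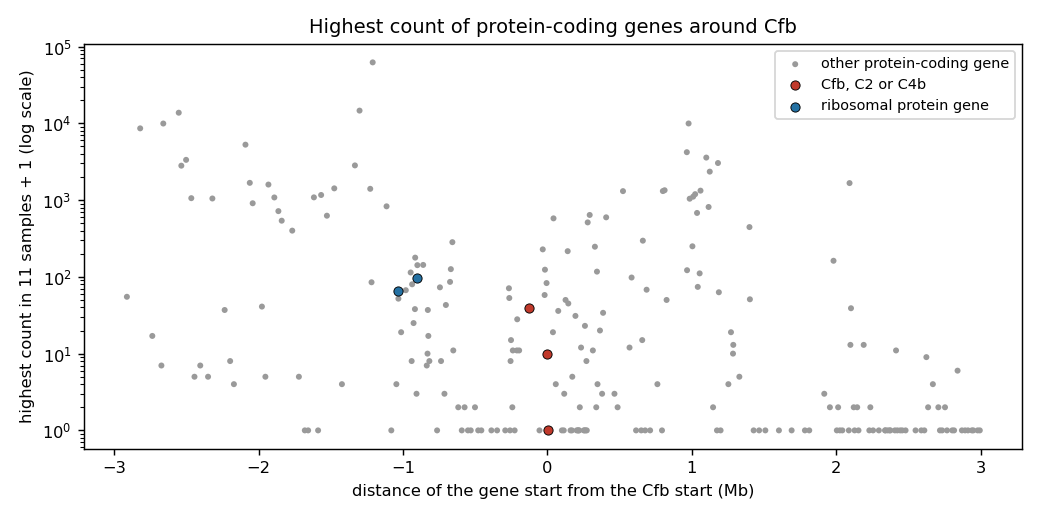
Highest count over the 11 samples, plus 1, on a log scale (vertical axis) of each protein-coding gene against the distance of its start from the start of Cfb in Mb (horizontal axis). Red points are Cfb, C2 and C4b, blue points are ribosomal protein genes, one of them Rps18 with at most 97 counts, and grey points are the other genes. From 1.17 Mb before Cfb to 0.517 Mb after it, no gene passes 828 counts. This stretch was defined to end at the nearest gene on each side with at least 1000 counts.

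The C1q chains encode the recognition part of the classical pathway, and all 3 were lower with both fragments. C1qa was at 2.49, 2.48 and 1.93 CPM in ControlA and at 0.443, 1.01 and 1.01 CPM with nApoE4. It was at 3.43, 2.29 and 2.62 CPM in ControlB and at 1.63 and 1.61 CPM with nApoE3. The nApoE4 replicate 1 was the lowest of all, and in both experiments the groups did not overlap.

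C1qb was at 66.1, 83.7 and 59.6 CPM in ControlA and at 43.7, 43.0 and 47.6 CPM with nApoE4. It was at 135, 130 and 140 CPM in ControlB and at 109 and 106 CPM with nApoE3. C1qb was thus lower in treated cells in both experiments, yet the nApoE3 samples stood above every sample of the nApoE4 experiment.

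C1qc was at 31.6, 38.5 and 27.9 CPM in ControlA and at 19.8, 19.1 and 20.9 CPM with nApoE4. It was at 48.6, 48 and 51.8 CPM in ControlB and at 34.2 and 33.4 CPM with nApoE3. As for C1qb, ControlA replicate 2 was the highest of its group and no treated sample reached its own controls.

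On the log2 scale, the changes with nApoE4 were −1.48 (SE 0.28) for C1qa, −0.63 (SE 0.11) for C1qb and −0.71 (SE 0.11) for C1qc. The changes with nApoE3 were −0.79 (SE 0.18), −0.34 (SE 0.033) and −0.55 (SE 0.041) in the same order. The differences between the fragments were −0.71 (SE 0.36), −0.31 (SE 0.14) and −0.16 (SE 0.14), given as a description as for the other members. Without nApoE4 replicate 1, the change of C1qa with nApoE4 was −1.18. Without ControlA replicate 2, the differences were −0.16 for C1qb and −0.026 for C1qc.

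Per kilobase of exon, the chains stood in the order C1qb, C1qc, C1qa in every group, although the protein holds them in equal parts. In ControlA the per-length levels were 64.1 ± 11.5 for C1qb, 16.9 ± 2.79 for C1qc and 2.21 ± 0.308 for C1qa (SD, n = 3, CPM per kilobase). The ratio of C1qb to C1qc was 3.79 ± 0.0760 (SD, n = 3) in ControlA and 3.98 ± 0.0658 (SD, n = 3) with nApoE4. It was 4.84 ± 0.0799 (SD, n = 3) in ControlB and 5.64 ± 0.0173 (SD, n = 2) with nApoE3. After each group's mean was taken off, the levels of C1qb and C1qc correlated at 0.988 over the 11 samples on the log2 scale, a description of samples that share their library and scaling. For C1qb and C1qa this value was 0.355.

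The receptors did not move together. C5ar1, the receptor through which C5a activates and attracts cells, was higher with both fragments. It was at 10.4, 11.3 and 9.73 CPM in ControlA and at 47.2, 49.7 and 47.4 CPM with nApoE4. It was at 16.0, 16.2 and 18.6 CPM in ControlB and at 55.8 and 51.2 CPM with nApoE3. The 5 treated samples lay close together and far above both control groups. The log2 fold change was 2.20 (SE 0.071) with nApoE4 and 1.66 (SE 0.059) with nApoE3, and the difference between the fragments was 0.54 (SE 0.10). Between the controls, ControlB was higher by 0.67 (SE 0.085).

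C3ar1, the receptor for C3a, was lower with nApoE4 and higher with nApoE3. It was at 198, 221 and 211 CPM in ControlA and at 158, 161 and 157 CPM with nApoE4. It was at 102, 106 and 110 CPM in ControlB and at 189 and 180 CPM with nApoE3. The groups did not overlap in either experiment, and the treated cells of the 2 experiments were closer to each other than their controls were. The log2 fold change was −0.40 (SE 0.060) with nApoE4 and 0.80 (SE 0.035) with nApoE3, and the difference was −1.21 (SE 0.074). ControlB was lower than ControlA by −1.01 (SE 0.055). Of 13750 genes tested in both experiments, 3.65% passed the threshold with both fragments in opposite directions, and C3ar1 was the only member among them.

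Within each sample, C3ar1 exceeded C5ar1 per kilobase of exon. This ratio was 12 ± 0.837 (SD, n = 3) in ControlA and 1.97 ± 0.0355 (SD, n = 3) with nApoE4. It was 3.75 ± 0.188 (SD, n = 3) in ControlB and 2.06 ± 0.0487 (SD, n = 2) with nApoE3. The controls were thus far apart and the treated cells of both experiments near the same ratio.

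C5ar2, another C5a receptor that does not couple to G proteins, is the neighbor of C5ar1 on chromosome 7 and was one of the other complement genes examined. It fell where C5ar1 was higher. It had 145, 126 and 143 counts in ControlA and 36, 33 and 27 counts with nApoE4. It had 195, 138 and 158 counts in ControlB and 34 and 44 counts with nApoE3. The log2 fold change was −1.99 (SE 0.17, adjusted p = 6.04e-06 from edgeR's quasi-likelihood test) with nApoE4 and −1.94 (SE 0.20, adjusted p = 2.16e-06) with nApoE3. The difference between the fragments was −0.070 (SE 0.26, adjusted p = 0.878 from edgeR). Per kilobase of exon, the ratio of C5ar1 to C5ar2 was 4.74 ± 0.719 (SD, n = 3) in ControlA and 87.1 ± 9.31 (SD, n = 3) with nApoE4. It was 9.09 ± 1.02 (SD, n = 3) in ControlB and 112 ± 29.2 (SD, n = 2) with nApoE3.

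**Figure D3:**
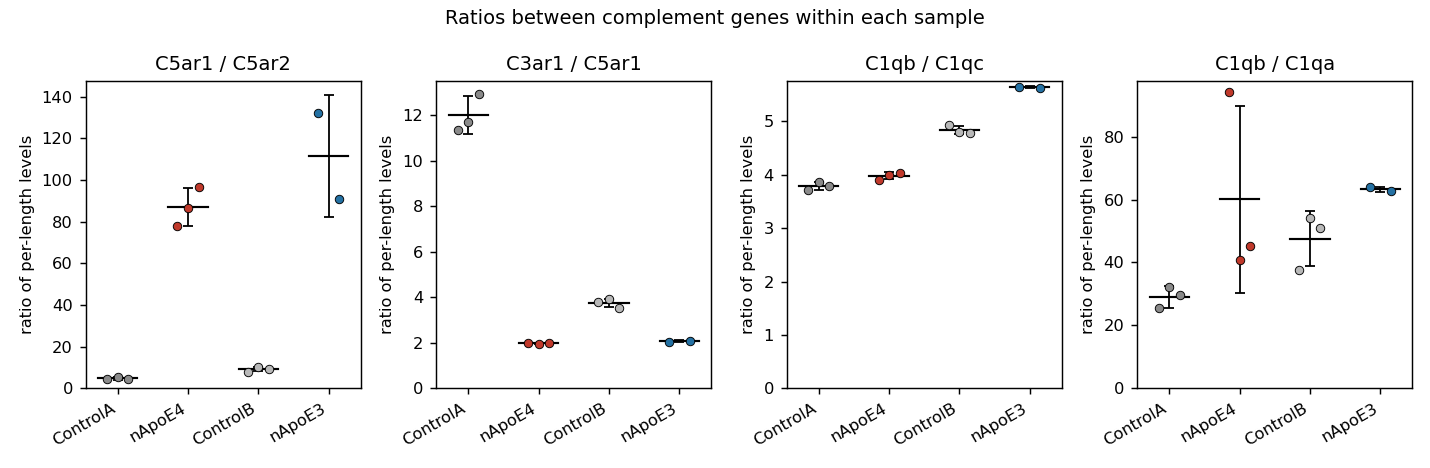
Ratio of per-length levels (counts per kilobase of exon) of C5ar1 to C5ar2, C3ar1 to C5ar1, C1qb to C1qc and C1qb to C1qa (vertical axes, from 0) in each sample of the 4 groups. Points are samples, the line is the mean and the bar the SD. C5ar1 to C5ar2 is at 4.25 to 10.1 in controls and 77.98 to 132 in treated cells. C1qb to C1qc lies between 3.71 and 5.65, and in each experiment the treated samples are above their own controls. C1qb to C1qa is at 25.4 to 54.1 in controls and 40.7 to 94.2 in treated cells.

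Counted together, 3 of the 8 members tested with nApoE4 were higher and 5 lower, with an adjusted p under 0.05 from edgeR, where 57.2% of all genes tested passed (28.6% higher and 28.6% lower). With nApoE3, 4 were higher and 4 lower of 8, where 67.7% of all genes passed (33.1% higher and 34.6% lower). Between the control groups, 4 were higher and 2 lower in ControlB of 7 tested, where 69.3% of all genes passed (34.4% higher and 34.9% lower). For the difference between the fragments, 2 were higher with nApoE4 (Hc and C5ar1) and 1 was lower (C3ar1) of 8, where 28.3% of all genes passed (14.4% higher and 13.9% lower). Groups did not overlap with nApoE4 for 3 members that were higher and 5 that were lower, where this held for 31.5% and 32.1% of all genes tested. With nApoE3, it held for 5 members that were higher, Cfb among them, and 4 that were lower, where it held for 38.6% and 39% of all genes tested. The members were chosen with these values known, so nothing is read from the counts. Cfb was the member that could not be tested.

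The levels of the members were compared with that of Hc over the 11 samples on the log2(CPM + 0.5) scale. The 5 genes nearest to Hc among 12424 genes, by Pearson's correlation, were Spon1 (0.996), Gm33566 (0.996), Gm19410 (0.996), Gm41145 (0.993) and Gm38403 (0.993). Entry to this ranking took 1 CPM or more as the average of any group, which these 5 genes reached with nApoE4 alone. Low genes that enter through nApoE4 alone share the shape of Hc, so their values near 1 show little beyond this. Spon1, which encodes the matrix protein F-spondin, went from 0.508 to 4.53 CPM with nApoE4 and from 0.495 to 0.873 CPM with nApoE3. With Spearman's correlation in place of Pearson's, none of these 5 genes were among the nearest 5. Among the members, the correlation with Hc was 0.70 for C5ar1, 0.13 for C3, 0.29 for Cfp, 0.032 for C3ar1 and −0.87 to −0.78 for the C1q chains. The 11 points fall in 4 groups and share their library scaling, so these values are a description.

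Of the genes within 100 kb of Hc on chromosome 2, the ones with the most counts were Traf1 and Cntrl. Traf1, an adaptor of TNF receptor signaling, rose with both fragments. It went from 1.08 to 203 CPM with nApoE4 (log2 fold change 7.55, SE 0.087, adjusted p = 4.96e-11 from edgeR) and from 1.16 to 124 CPM with nApoE3 (6.74, SE 0.052, adjusted p = 3.75e-16 from edgeR). The difference between the fragments was 0.80 for Traf1 (SE 0.12, adjusted p = 3.50e-04 from edgeR), against 6.36 for Hc. Cntrl, a gene of the centrosome, had log2 values of −0.060 (SE 0.086) and −0.0081 (SE 0.027) and passed with neither fragment. Traf1 and Cntrl were chosen by their position within 100 kb of Hc, after the data were seen.

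Of 54 other complement genes, 23 were tested with nApoE4 and 26 with nApoE3. The 54 include C2, C4a and C4b, whose counts are not read as expression. C4b was one of the 23 tested with nApoE4 and is counted among those that did not pass. With nApoE4, 8 rose, 6 fell and 9 did not pass, and with nApoE3, 6 rose, 9 fell and 11 did not pass. The median log2 fold change of those tested was 0.15 with nApoE4, where it was 0.0013 over all genes, and 0.21 with nApoE3, where it was −0.0026. The shares that passed were 60.9% with nApoE4, against 57.2% of all genes, and 57.7% with nApoE3, against 67.7% of all genes (33.1% higher and 34.6% lower). Of the genes tested with nApoE4, Serping1, C1rb, Cr2 and Cd59a passed the filter on low counts only through the treated samples. With nApoE3, this held for Serping1 and Susd4. The 31 and 28 genes not tested had too few counts, most terminal components and the mannose-binding lectins Mbl1 and Mbl2 among them, which the liver is known to make.

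Serping1 and Susd4, a soluble and a surface inhibitor, rose with both fragments. Serping1, which encodes the C1 inhibitor, had 1 count in each ControlA sample and 12, 39 and 22 counts with nApoE4, and 10, 10 and 6 counts in ControlB and 112 and 94 counts with nApoE3. Its log2 fold change was 4.56 (SE 0.67, adjusted p = 2.76e-04 from edgeR) and 3.68 (SE 0.24, adjusted p = 4.04e-08). In the nApoE4 experiment it passed the filter on low counts only through its treated samples, so it had to differ there to be tested. That fold rests on 3 control counts, and the scaled ratio of counts was 26.3 (95% exact counting interval 8.65 to 130). Susd4, a membrane inhibitor of the convertases, had 11, 13 and 14 counts in ControlA and 158, 180 and 152 with nApoE4, and 10, 7 and 7 counts in ControlB and 37 and 43 with nApoE3. Susd4 rose by 3.79 (SE 0.18, adjusted p = 1.03e-07 from edgeR) with nApoE4 and by 2.44 (SE 0.31, adjusted p = 1.68e-05) with nApoE3. In the nApoE3 experiment, the control counts of Serping1 and Susd4 alone would not have passed the filter. Both were tested there only through their treated samples.

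Of the proteases that act with C1q, C1ra rose with both fragments while the C1q chains were lower. C1ra, which encodes C1r, rose by 1.43 (SE 0.20, adjusted p = 2.10e-04 from edgeR) with nApoE4 and by 1.05 (SE 0.12, adjusted p = 4.87e-06) with nApoE3 on the log2 scale. Its near copy C1rb rose by 2.43 (SE 0.62, adjusted p = 0.00767) with nApoE4, from 0, 2 and 7 counts to 17, 12 and 17, and by 3.86 without ControlA replicate 3. It too passed the filter only through its treated samples. Reads may be split between C1ra and C1rb, and their values are uncertain to that extent. C1s1, which encodes C1s, had too few counts to be tested with either fragment against its own controls and was picked after its values were seen. In the difference between the fragments it was tested and did not pass (2.6, SE 1.65, adjusted p = 0.28 from edgeR). It had 0 counts in each ControlA sample and 14, 8 and 9 with nApoE4, at least 11.2-fold higher against a floor of 3 counts over the group. It had 1, 1 and 0 counts in ControlB and 17 and 8 with nApoE3, a ratio of 20.6 (95% exact counting interval 5.14 to 179). Masp2, a protease of the lectin pathway, rose by 0.32 (SE 0.12, adjusted p = 0.0358) with nApoE3, a call lost with DESeq2 and when any single sample was left out, and it overlaps the gene Tardbp.

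Among regulators and other receptors, Cr1l rose by 0.48 (SE 0.055, adjusted p = 5.62e-05 from edgeR) with nApoE4 and by 0.32 (SE 0.032, adjusted p = 1.87e-06) with nApoE3. Cr1l and Cd46 lie next to each other on chromosome 1, without overlap in GENCODE and with overlapping ends in RefSeq, and the annotation used for the counting is not given in the sources used here. Cr2, the receptor for C3d, rose by 0.93 with nApoE4 (SE 0.35, adjusted p = 0.0437 from edgeR), and this call was lost with DESeq2 (adjusted p = 0.106) and without any of ControlA replicates 1 and 2 and nApoE4 replicates 1 and 2 (adjusted p = 0.0960 to 0.131). With 8 counts in ControlA replicate 2, Cr2 passed the filter on low counts only through its treated samples. Cpn1, the carboxypeptidase that inactivates C3a and C5a, fell by 1.43 (SE 0.23, adjusted p = 5.57e-04) with nApoE4 and by 0.70 (SE 0.23, adjusted p = 0.0194) with nApoE3. Without nApoE3 replicate 2, the latter was −0.36 and no longer passed (adjusted p = 0.216 from edgeR), and it was also lost without ControlB replicate 3 (adjusted p = 0.0523) and with DESeq2 (adjusted p = 0.0536).

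Itgam, the alpha chain of complement receptor 3, fell by 0.37 (SE 0.062, adjusted p = 6.23e-04 from edgeR) with nApoE4 and by 0.30 (SE 0.030, adjusted p = 1.90e-06) with nApoE3. C8g, a chain of component C8, fell by 1.28 (SE 0.22, adjusted p = 8.56e-04) and 1.23 (SE 0.28, adjusted p = 0.00201), and it overlaps the gene Fbxw5. Vsig4, a receptor for C3b on macrophages, fell by 0.92 (SE 0.29, adjusted p = 0.0146) with nApoE3, a call lost with DESeq2 (adjusted p = 0.112) and without ControlB replicate 1 or nApoE3 replicate 2 (adjusted p = 0.0513 and 0.0884). It had too few counts to be tested with nApoE4.

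Between the fragments, 4 of 27 other complement genes (14.8%) differed at an adjusted p under 0.05 from edgeR, where 28.3% of all genes did. The 27 include C4b, whose counts are not read as expression and which did not pass. The difference was 1.35 (SE 0.32, adjusted p = 0.00960) for Susd4, which rose more with nApoE4, and it no longer passed without ControlB replicate 1 (adjusted p = 0.0607). It was 1.01 (SE 0.23, adjusted p = 0.00557) for Cd93, a surface protein once described as a C1q receptor, which fell by 1.46 (SE 0.12, adjusted p = 4.39e-07) with nApoE3 and had −0.43 (SE 0.21, adjusted p = 0.108) with nApoE4. It was 0.58 (SE 0.12, adjusted p = 0.00292) for Cd46, which rose by 0.48 (SE 0.097, adjusted p = 0.00205) with nApoE4 and had −0.11 (SE 0.055, adjusted p = 0.0993) with nApoE3. For Itgb2, the beta chain of complement receptors 3 and 4, it was −0.20 (SE 0.070, adjusted p = 0.0454), and this call was lost when any single sample other than those of ControlA was left out.

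**Figure D4:**
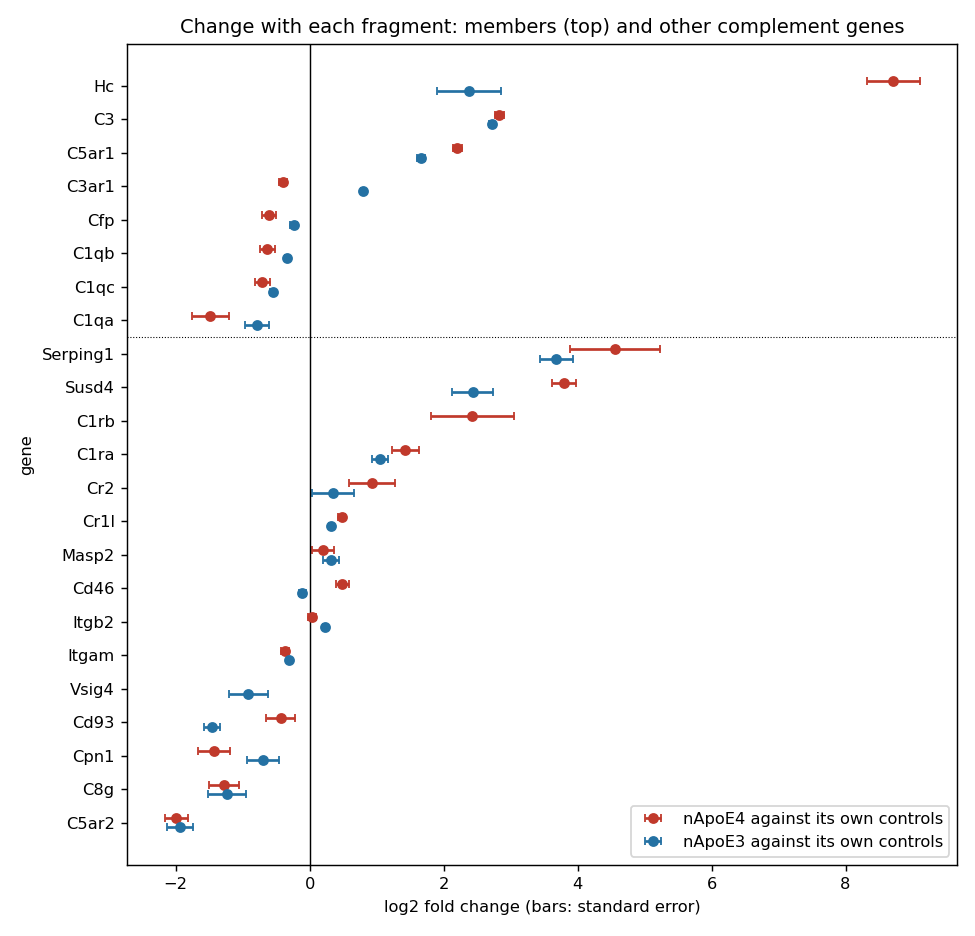
Log2 fold change against own controls (horizontal axis) with nApoE4 in red and nApoE3 in blue, for the 8 members that could be tested (above the dotted line) and the other complement genes described here (below it). Points are edgeR estimates and bars are standard errors. Hc is at 8.72 and 2.38, C3ar1 lies on opposite sides of 0, and C5ar2 is near −2 with both fragments.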

How the data were processed

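RNA from BV2 cells was sequenced in 11 samples. The authors trimmed reads with Trim Galore 0.5.0, mapped them to GRCm38.p6 with HISAT2 2.1.0 and counted them with HTSeq 0.11.0, per the labels' processing notes. They deposited raw counts per gene for each sample. The annotation release and strand setting are not given in the sources used here. Reads counted on no gene were left out, and 76 to 77.7% of tallied reads were on genes.

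The members and gene lists were chosen with earlier results of these data known. Tests used edgeR 4.0.16 under R 4.3.3 (filterByExpr, TMM, quasi-likelihood F test, Benjamini-Hochberg adjustment over all genes tested, threshold 0.05). This took the place of DESeq2, which the study used and which was tried as an alternative. Each treated group was set against the controls of its experiment, and the difference between fragments was an interaction over 11 samples. Standard errors were taken from the F statistic, as the log2 fold change over its square root. Levels per length used exon lengths of GENCODE M21. A floor of 3 counts and 95% exact (Clopper-Pearson) intervals cover counting error only.

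All 9 members were named. Of the other complement genes, the 5 highest and 5 lowest log2 fold changes per fragment and the 3 in each direction for the difference were named, among those with an adjusted p under 0.05. A gene that this rule names is not reported here. The pipeline was tested on simulated data. Alternatives were DESeq2 1.42.0, its size factors, a filter of at least 10 counts in every sample, a filter of at least 1 count, one fit over all samples, a replicate block, leaving out each sample, and Spearman's correlation for the genes nearest to Hc.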

Additional observations from a re-analysis of the deposited data

Results flagged for a closer look

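The difference in log2 fold change, nApoE4 minus nApoE3, passed an adjusted p under 0.05 in the interaction test of edgeR over the 11 samples for 4 of 27 other complement genes, where 28.3% of all genes passed. It was 1.35 for Susd4, 1.01 for Cd93, 0.58 for Cd46 and −0.20 for Itgb2. Among the members, the difference was 6.36 for Hc, 0.54 for C5ar1 and −1.21 for C3ar1. These are descriptions, since the members were chosen with these values known, Hc for this difference itself. Each fragment was applied in its own experiment, so an effect of the fragment and an effect of the experiment cannot be told apart in these values. Groups held 2 or 3 samples, too few to test a single sample as far from the rest.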

How the results depend on the processing

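No result reversed its direction under any alternative. With at least 10 counts in every sample, 5 other complement genes rose with nApoE4 in place of 8, and 1 member in place of 2 was higher with nApoE4 in the difference, since Hc and other low genes were not tested there. In the difference, 2 members in place of 1 were lower with DESeq2 and with a filter of at least 1 count, the added member being Cfp. No other complement gene was lower in the difference with at least 1 count or with the replicate block, where Itgb2 no longer passed (0 in place of 1). Leaving out 1 sample at a time, the other complement genes higher in the difference numbered 2 to 5 and those lower 0 to 1, and the members called lower numbered 1 to 3. The largest counts came without ControlA replicate 2 for the other genes and without ControlA replicate 3 for the members. With nApoE4, 6 to 8 other genes rose and 5 to 7 fell when 1 sample was left out, and with nApoE3, 5 to 6 rose and 7 to 10 fell. With replicate number as a block, Hc had 1.98 with nApoE3 and 6.75 in the difference on the log2 scale, and the calls of Cr2 with nApoE4, Masp2 with nApoE3, and Susd4 and Itgb2 in the difference were lost. Deviations of samples with the same number correlated at −0.17 to −0.0079, so the numbers were not taken as pairs. Hc held 4 counts in all of ControlA, and its log2 fold change with nApoE4 was 8.16 to 9.90 when 1 sample was left out.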
